A study of Homo sapiens with 4 samples.

Results

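The nuclear lamina and the LINC complex (linker of nucleoskeleton and cytoskeleton) were examined through the transcripts of 10 genes chosen by name: the lamins LMNA, LMNB1 and LMNB2, the inner nuclear membrane proteins LBR and EMD, the SUN proteins SUN1 and SUN2, and the nesprins SYNE1, SYNE2 and SYNE3. All 10 were found among the 60721 genes of the count table, and all 10 were among the 16137 genes that passed the filter on low counts. The samples were HS578T cells, an established line from a human breast carcinoma, and every culture received GFP. SCR cells also received a non-targeting (scrambled) control siRNA, whereas siTLN1 cells received an siRNA directed at TLN1, the gene of the integrin adaptor talin-1. Both RNAs were used at 1.6 µM, and RNA was collected 48 h later from 2 biological replicates per group and sequenced from stranded libraries of polyadenylated RNA. The sequence of the siRNA is not given in the sources used here, and a second siRNA was not analysed here.

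The lamins form a filament meshwork under the inner nuclear membrane. LMNA encodes the A-type lamins A and C, whose amount relative to the B-type lamins is known to rise with tissue stiffness, and LMNB1 and LMNB2 encode the B-type lamins, which stay anchored in the membrane through a farnesyl group. SUN proteins span the inner nuclear membrane and bind the KASH domain of nesprins in the outer membrane, and nesprins in turn bind actin or cytolinkers, so that force at integrin adhesions can reach the lamina. Talin lies at the other end of that path, where integrins meet actin.

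Total counts per library lay between 31854322 and 46353297, and the 10 genes together took between 0.208% and 0.224% of them. The columns of the count table carry a number that is shared between the groups, so that each group has a library a and a library b here, and what these numbers mark is not stated. TLN1 fell to 5.55% of its SCR mean, from 868 and 874 CPM (the usual depth-scaled count, with library sizes scaled by TMM) to 51.9 and 44.8 CPM (log2 fold change −4.17, SE 0.11, edgeR adjusted p 3.89e-13), in the direction of the labels. The source is labelled as epithelial, yet 2 defining epithelial markers were near the floor, with EPCAM at no more than 0.144 CPM and CDH1 at no more than 0.851 CPM in any library. KRT18 was at 104 to 131 CPM, and the mesenchymal marker VIM was at 3811 to 3968 CPM. KRT8 was at 15.1 to 20.7 CPM, and KRT18 and KRT8 made up nearly all of the epithelial sum. The summed level of the 11 epithelial markers was 123 to 153 CPM in SCR and 132 to 143 CPM in siTLN1. That of 8 blood and endothelial markers was 4.53 to 6.54 CPM over the 4 libraries, with CD3E at 0 counts. With 2 libraries per group, p-values measure only the spread between these libraries, and edgeR estimates that spread partly from other genes.

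The siRNA against TLN1 went with small changes in this set, and 1 of the 10 genes passed the test. LMNB1 rose 1.28-fold in siTLN1, and no member fell past the threshold. Genes were called at an adjusted p below 0.05 (edgeR quasi-likelihood F-test, Benjamini-Hochberg). Of all tested genes 6.07% were called, 2.3% in the higher and 3.77% in the lower direction, and without siTLN1 library a the calls dropped from 980 genes to 347. The count of 1 member in 10 is near that background. The CPM of the 2 groups did not overlap for 5 members, of which LMNB1, LBR and SUN1 were higher and LMNB2 and EMD lower in siTLN1. Groups did not overlap for 48.4% of all tested genes, so this count too is near the background. These 5 members also had an unadjusted p under 0.05, against 19.8% of all tested genes. The median log2 fold change of the 10 members was −0.078, against 0.0033 over all tested genes. Regardless of sign, the median log2 fold change was 0.20 in the members and 0.16 over all tested genes, and LMNB1 had the largest size among the members, 0.36. In a bulk sample, fewer cells that express a gene and less of its RNA per cell cannot be told apart.

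**Figure D1:**
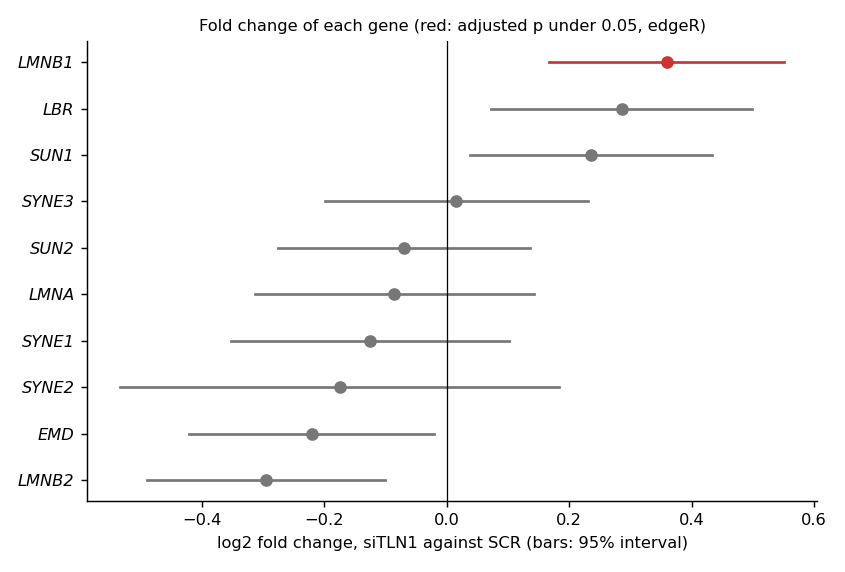
Log2 fold change of each gene in siTLN1 against SCR (horizontal axis), with its 95% interval from the edgeR fit, for the 10 genes (vertical axis). LMNB1, in red, is the member past the adjusted threshold at 0.36. The intervals of LBR, SUN1, EMD and LMNB2 lie on 1 side of zero before adjustment, and those of the other 5 genes span zero.

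Among the lamins, the B-type genes were the ones whose groups separated, and they lay on opposite sides. LMNB1 (ENSG00000113368.12; GRCh38, chromosome 5, 126776623 to 126837020, plus strand) stood at 140 and 135 CPM in SCR and at 180 and 174 CPM in siTLN1. Both siTLN1 libraries were above both SCR libraries, and the SCR mean of 138 ± 3.59 CPM compared with a siTLN1 mean of 177 ± 4.43 CPM (SD, n = 2 each). On the log2 scale the fold change was 0.36 (SE 0.091), with a 95% interval from 0.17 to 0.55 and an edgeR adjusted p of 0.0256. LMNB1 is a lamin whose loss is a known mark of senescent cells. Its change was nearly equal in library a (0.36) and library b (0.36), taken as the log2 difference of siTLN1 from SCR. The call did not survive the removal of every library. It was kept without SCR library a (edgeR adjusted p 0.0452) and lost without SCR library b (0.124), siTLN1 library a (0.219) or siTLN1 library b (0.0650), where 1 group is left with a single library that is assumed to vary like the others. The log2 fold change stayed between 0.33 and 0.39 in these 4 fits.

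LMNB2 (ENSG00000176619.13; chromosome 19, 2427638 to 2456959, minus strand), which encodes the other B-type lamin, had 341 and 348 CPM in SCR and 275 and 286 CPM in siTLN1. Both siTLN1 libraries were below both SCR libraries. Its log2 fold change of −0.29 (SE 0.092) had an edgeR adjusted p of 0.0697, so the difference did not pass. DESeq2 placed it past the threshold (adjusted p 0.0389, log2 fold change −0.29). LMNA (ENSG00000160789.20; chromosome 1, 156082573 to 156140089, plus strand) had 737 and 889 CPM in SCR and 749 and 784 CPM in siTLN1. Both siTLN1 values of this A-type lamin gene lay between the SCR values, so the groups overlapped. Its log2 fold change was −0.086 with a 95% interval from −0.31 to 0.14 (edgeR adjusted p 0.733), and it was 0.056 without SCR library b, the library with the highest LMNA value, and −0.21 without SCR library a. The counts are per gene and do not separate lamin A from lamin C.

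**Figure D2:**
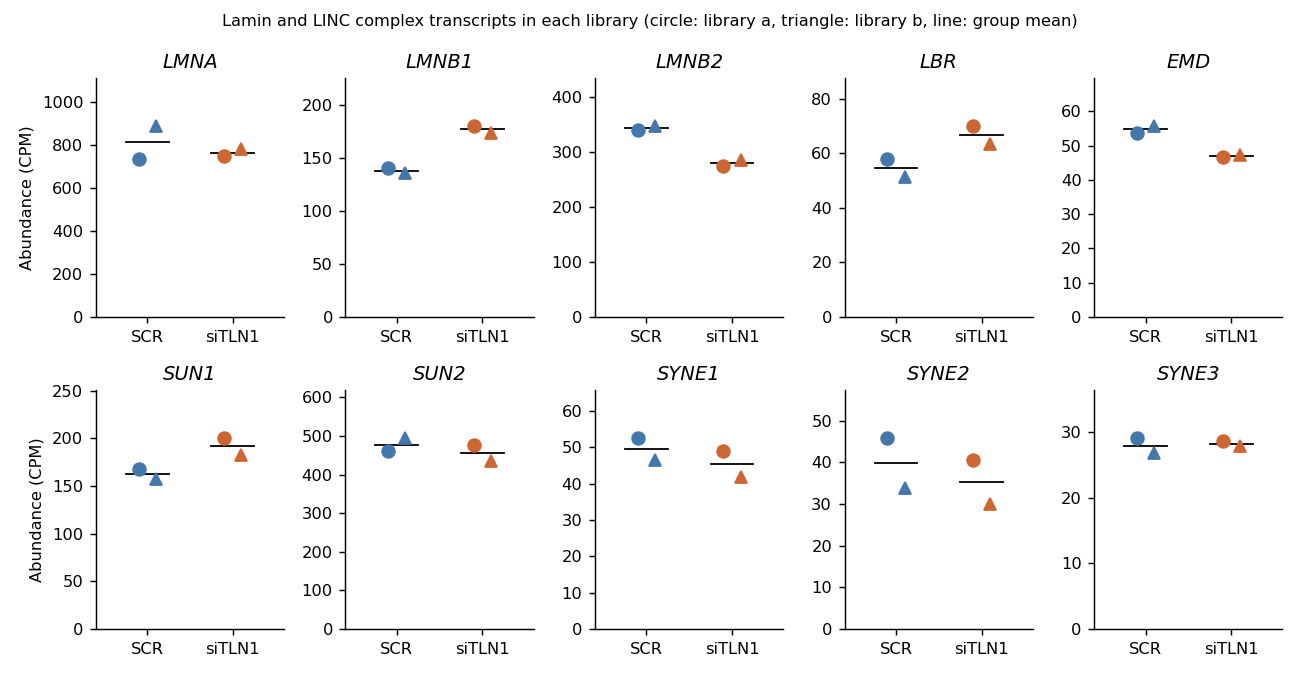
Abundance in CPM (vertical axes, starting at 0) of the 10 genes in each SCR and siTLN1 library, with circles for library a, triangles for library b and a line at the mean of 2 libraries. LMNB1, LBR and SUN1 sit higher in both siTLN1 libraries, LMNB2 and EMD sit lower, and the other 5 genes overlap.

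The inner nuclear membrane proteins LBR and EMD lay on opposite sides too, and neither passed the test. LBR (ENSG00000143815.15; chromosome 1, 225401502 to 225428925, minus strand) encodes the lamin B receptor, which tethers heterochromatin and also has sterol reductase activity. It had 57.9 and 51.3 CPM in SCR and 69.9 and 63.2 CPM in siTLN1. The groups did not overlap, and LBR differed by 0.29 (log2, SE 0.10, edgeR adjusted p 0.112). Without SCR library a its value was 0.38 and its edgeR adjusted p 0.04996, just inside the threshold. It did not pass without SCR library b (0.20, edgeR adjusted p 0.467), siTLN1 library a (0.21, 0.578) or siTLN1 library b (0.36, 0.120). EMD (ENSG00000102119.11; chromosome X, 154379273 to 154381523, plus strand) encodes emerin, a LEM-domain protein that binds lamins and caps actin filaments. It had 53.8 and 55.7 CPM in SCR and 46.8 and 47.2 CPM in siTLN1, with no overlap. The log2 difference was −0.22 (SE 0.094, edgeR adjusted p 0.198).

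The SUN genes, whose products form the inner membrane side of the LINC complex, did not pass the test either. SUN1 (ENSG00000164828.18; chromosome 7, 816615 to 896435, plus strand) had 168 and 158 CPM in SCR and 200 and 183 CPM in siTLN1. The siTLN1 libraries were both above the SCR libraries, by 0.24 on the log2 scale (SE 0.094, edgeR adjusted p 0.162). SUN2 (ENSG00000100242.15; chromosome 22, 38734725 to 38794143, minus strand) had 461 and 495 CPM in SCR and 476 and 435 CPM in siTLN1. Its groups overlapped, with a log2 fold change of −0.070 and a 95% interval from −0.28 to 0.14 (edgeR adjusted p 0.766). With 1 library left out it ran from −0.14 (siTLN1 library a) to −0.0038 (siTLN1 library b), and was −0.12 and −0.019 with SCR library a or b left out. Counting limits both genes. Exons of other genes in the count table cover 15.5% of the exon bases of SUN1, nearly all of them in GET4 on the same strand, and 24.6% of those of SUN2, mostly on the opposite strand. The libraries keep strand, per the labels, but the header of the count table names no option for strand or for reads that fall on several genes, so the levels of SUN1 and SUN2 are uncertain.

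The nesprins, the KASH-domain partners of the SUN proteins, showed no difference beyond the spread between libraries. SYNE1 (ENSG00000131018.24; chromosome 6, 152121684 to 152637801, minus strand) encodes the giant actin-binding nesprin-1. It had 52.5 and 46.4 CPM in SCR and 48.9 and 41.8 CPM in siTLN1, with overlap and a log2 fold change of −0.12 (95% interval −0.35 to 0.10, edgeR adjusted p 0.581). With an SCR library left out, SYNE1 was at −0.032 (a) or −0.21 (b), and with a siTLN1 library left out it was at −0.24 (a) or −0.011 (b). SYNE2 (ENSG00000054654.17; chromosome 14, 63761899 to 64226433, plus strand) encodes nesprin-2, the other giant nesprin. It had 45.8 and 33.9 CPM in SCR and 40.6 and 30.1 CPM in siTLN1, a log2 fold change of −0.17 with the widest interval of the set (−0.53 to 0.18, edgeR adjusted p 0.624). Library b was below library a by 0.43 (log2) in each group, whereas siTLN1 was below SCR by 0.17 in library a and in library b. Its fold change was 0.058 with SCR library a left out and 0.032 with siTLN1 library b left out. SYNE3 (ENSG00000176438.12; chromosome 14, 95407266 to 95475836, minus strand) encodes nesprin-3, which binds plectin and through it intermediate filaments. It had 29.1 and 26.8 CPM in SCR and 28.6 and 27.9 CPM in siTLN1, and the siTLN1 libraries lay within the SCR range (log2 fold change 0.016, 95% interval −0.20 to 0.23, edgeR adjusted p 0.958). Its sign turned when SCR library b (−0.042) or siTLN1 library a (−0.0022) was left out.

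A sequence word in the 3′ UTR went with lower fold changes across all genes, and among the members SYNE1 holds it there. Among 9484 genes with a 3′ UTR of at least 100 bases and a mean of at least 5 CPM, 757 (7.98%) held the word GACAACA in the 3′ UTR of the transcript with the longest coding sequence. Their median log2 fold change was −0.097 and 19.9% of them fell past the threshold, against 0.0086 and 3.99% of the 8727 genes without it. The word was found earlier in these same data, so these values are a description. Of the 10 members, SYNE1 alone held it in the 3′ UTR of that transcript, and 1 of 12 coding transcripts of SYNE2 held it in a 3′ UTR. Coding sequence of SYNE1, SYNE2, SYNE3 and TLN1 held it as well. The lamins, LBR, EMD, SUN1 and SUN2 held no copy in a coding sequence or 3′ UTR of the transcripts chosen, nor in a 3′ UTR of any annotated coding transcript. Sites are shown 5′ to 3′ on the transcript strand, from GENCODE 29 (GRCh38), with the word in capitals. They are shown because the members that hold the word anywhere in a coding sequence or 3′ UTR are the nesprins. Length limits this reading, since a longer transcript has more room for a short word. The chosen transcripts had 27748 bases for SYNE1, 21842 for SYNE2 and 3275 for SYNE3. Those of the members without the word had 1379 to 4671 bases. In the 3′ UTR, 1 member of 10 is near the background of 7.98%. The 2 coding sites of SYNE1 and the 1 coding site of SYNE2 are left out.

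SYNE1 3′ UTR, chr6:152122235-152122241, in 6 of 19 coding transcripts: aacaaacaGACAACAagaaggtt

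SYNE2 3′ UTR, chr14:63960855-63960861, in 1 of 12 coding transcripts: ccagactgGACAACAtagagaga

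SYNE3 coding sequence, chr14:95475725-95475731, in 3 of 4 coding transcripts: aggtcaatGACAACAcgcaggga

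TLN1 coding sequence, chr9:35706037-35706043, in its 1 coding transcript: gaggacctGACAACAaccctcaa

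The coordinates are those of the 7 bases in capitals, with 8 bases of flank on each side. None of the 3 nesprins passed the test in either direction, and whether the word bears on their values was not tested.

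Levels of different genes were compared per exon length, as RPKM (CPM divided by kilobases of exon). In SCR the order was LMNA (116 RPKM on average), SUN2 (73.7), LMNB2 (63.8), LMNB1 (37.9), EMD (28.2), SUN1 (13.7), LBR (9.56), SYNE3 (1.54), SYNE2 (1.23) and SYNE1 (1.06). Each gene stood apart from the next beyond the range of its 2 libraries, except SYNE2 and SYNE1, which overlapped. The order was the same in siTLN1, again with SYNE2 and SYNE1 as the overlapping neighbours. LMNB2 and LMNB1 came closer there, at 51.0 and 53.1 RPKM for LMNB2 against 49.5 and 47.8 RPKM for LMNB1. Lengths here are the union of all annotated exons, 46686 bases for SYNE1 and 32377 bases for SYNE2. A gene whose union is much longer than its isoforms appears lower than a single isoform would. The union was 18164 bases for SYNE3, 11850 for SUN1, 6985 for LMNA and 3633 for LMNB1. Their transcripts with the longest coding sequence had 3275, 4062, 3190 and 2878 bases, in that order. The order of levels therefore depends on the lengths used.

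**Figure D3:**
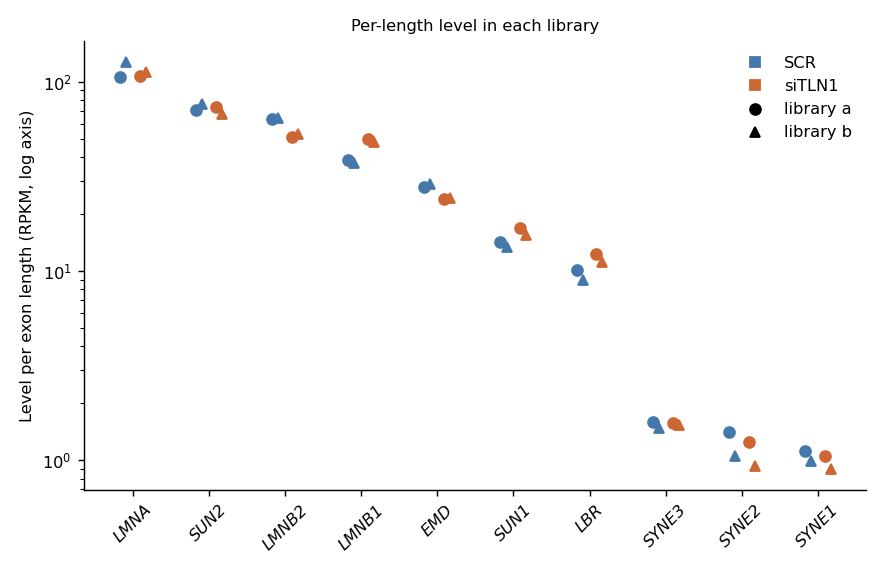
Per-length level in RPKM (vertical axis, log scale) of the 10 genes in each library, ordered by the SCR mean, with SCR in blue, siTLN1 in orange, circles for library a and triangles for library b. The order runs from LMNA at 116 RPKM to SYNE1 at 1.06 RPKM in SCR, and LMNB2 and LMNB1 lie closer together in siTLN1.

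Ratios within a library do not depend on library scaling and describe the balance between members. Their size does depend on the union exon lengths, so they are not ratios of transcript numbers. LMNA per B-type lamin (LMNB1 plus LMNB2) was 1.04 and 1.252 in SCR and 1.07 and 1.11 in siTLN1, so the A-type to B-type balance overlapped between groups (log2 difference −0.065, exact permutation p = 1, two-sided). With LMNB1 alone as the denominator it was 2.73 and 3.42 in SCR and 2.16 and 2.35 in siTLN1, without overlap (log2 difference −0.44). SUN1 per SUN2 was 0.199 and 0.175 in SCR and 0.231 and 0.230 in siTLN1, higher in both siTLN1 libraries (log2 difference 0.31, exact permutation p = 0.33, adjusted 0.667 over 4 ratios). The counting limits of both SUN genes apply to this ratio. LBR per LMNA was 0.0961 and 0.0706 in SCR and 0.114 and 0.0987 in siTLN1, also without overlap (log2 difference 0.37, exact permutation p = 0.33, adjusted 0.667). It moved to 0.14 without SCR library b and to 0.59 without SCR library a. SYNE1 per SYNE2 overlapped between groups, at 0.795 and 0.948 in SCR against 0.835 and 0.963 in siTLN1 (exact permutation p = 0.667, adjusted 0.889). No ratio could reach a p under 0.05, because the smallest exact p with 2 libraries against 2 is 0.33. LMNB2 per LMNB1, a ratio chosen after the values were seen, was 1.64 and 1.73 in SCR and 1.03 and 1.11 in siTLN1. That ratio is given without a test.

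**Figure D4:**
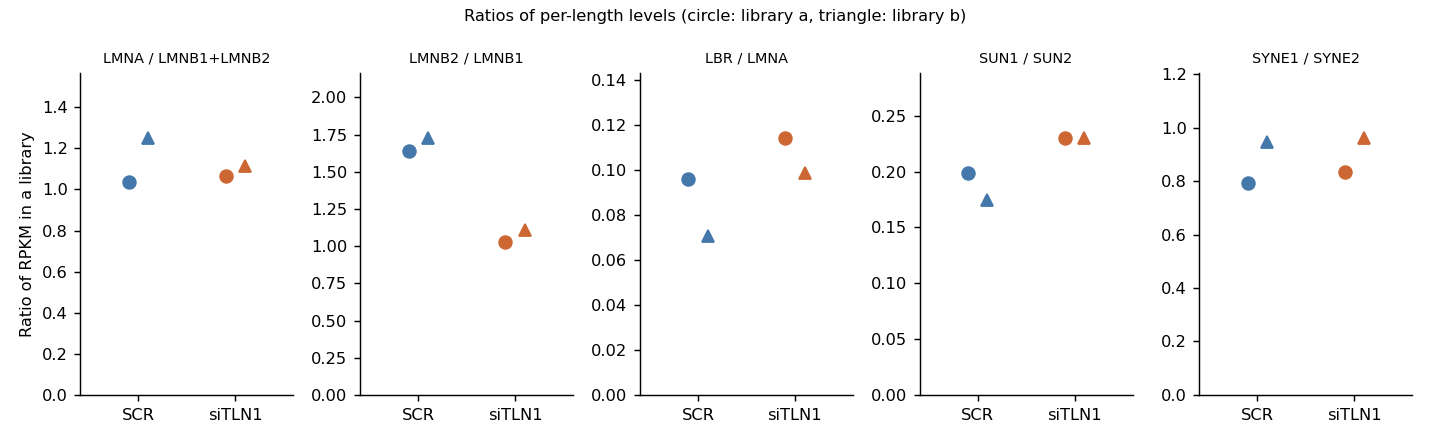
Ratios of per-length levels (vertical axes, starting at 0) in each SCR and siTLN1 library, with circles for library a and triangles for library b. The LMNB2 to LMNB1 ratio is lower and the LBR to LMNA and SUN1 to SUN2 ratios are higher in both siTLN1 libraries, whereas the LMNA to total B-type lamin and SYNE1 to SYNE2 ratios overlap.

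Other genes of the nuclear envelope were read from lists, beside the 6.07% of all tested genes that were called. The counts in these short lists are a description and were not tested against that share. Of 22 further inner nuclear membrane and LINC-linked genes, 17 were tested, 0 were higher and 1 was lower past the threshold, with a median log2 fold change of 0.084. The gene that fell was NEMP1, which encodes an inner nuclear membrane protein that binds emerin, at 99.9 and 80.6 CPM in SCR and 53.0 and 52.2 CPM in siTLN1. Its log2 fold change was −0.78 (SE 0.11, edgeR adjusted p 0.000378), it passed in each of the fits without 1 library, and it holds the word GACAACA in its 3′ UTR. The LEM-domain genes LEMD2 (0.024) and TMPO (0.10) did not pass, given as log2 fold changes, nor did LEMD3 (0.32, edgeR adjusted p 0.221). SYNE4, the gene of nesprin-4, did not pass the filter, at no more than 0.275 CPM in any library, and SUN5 and KASH5 had 0 counts.

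None of the 5 genes that process prelamin passed the test (median 0.0074). They include ZMPSTE24, the protease that matures lamin A, at 128 and 116 CPM in SCR and 124 and 120 CPM in siTLN1. Of 12 cytoskeletal genes linked to nesprins, 1 was higher and 0 were lower past the threshold (median 0.027). PLEC, the plectin gene and partner of nesprin-3, overlapped between groups (−0.040, edgeR adjusted p 0.906).

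Of 32 nuclear pore genes, 1 was higher and 1 was lower past the threshold, near the background of 6.07%, with a median log2 fold change of 0.086. The higher gene was POM121C, which encodes a membrane-bound pore protein (0.34, edgeR adjusted p 0.0416), and 56.7% of its words of 31 bases recur in transcripts of other genes, so its count is uncertain. It lost its call without SCR library b (0.172), siTLN1 library a (0.359) or siTLN1 library b (0.0701), given as edgeR adjusted p. The lower gene was SEC13, shared by the pore and the COPII coat (−0.34, edgeR adjusted p 0.0464), which lost its call without SCR library b (0.228) or siTLN1 library a (0.424). With no filter on low counts neither passed (edgeR adjusted p 0.0689 for POM121C and 0.113 for SEC13). None of 12 tested genes of nuclear envelope resealing passed (median −0.057). None of 10 proliferation markers passed (median 0.028), and their summed level was 2315 to 2666 CPM in SCR and 2453 to 2742 CPM in siTLN1. That level is given because LMNB1 is expressed more in cycling cells, and its part in the LMNB1 value was not tested. Of 10 mesenchymal markers, CDH2 (−0.89) and SPARC (−0.48) fell past the threshold and 0 rose. The other markers did not pass, and 3.77% of all tested genes fell past the threshold. CDH2 had an edgeR adjusted p of 2.45e-05, and its log2 fold change ran from −0.93 to −0.84 without 1 library. Like NEMP1, CDH2 holds the word GACAACA in a 3′ UTR, in 1 of 5 coding transcripts. SEC13 and SPARC, which also fell past the threshold, hold no copy in a 3′ UTR of any annotated coding transcript. Whether the word bears on these values was not tested. SPARC had an edgeR adjusted p of 0.0161, which lay between 0.0534 and 0.143 in the 4 fits without 1 library.

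**Figure D5:**
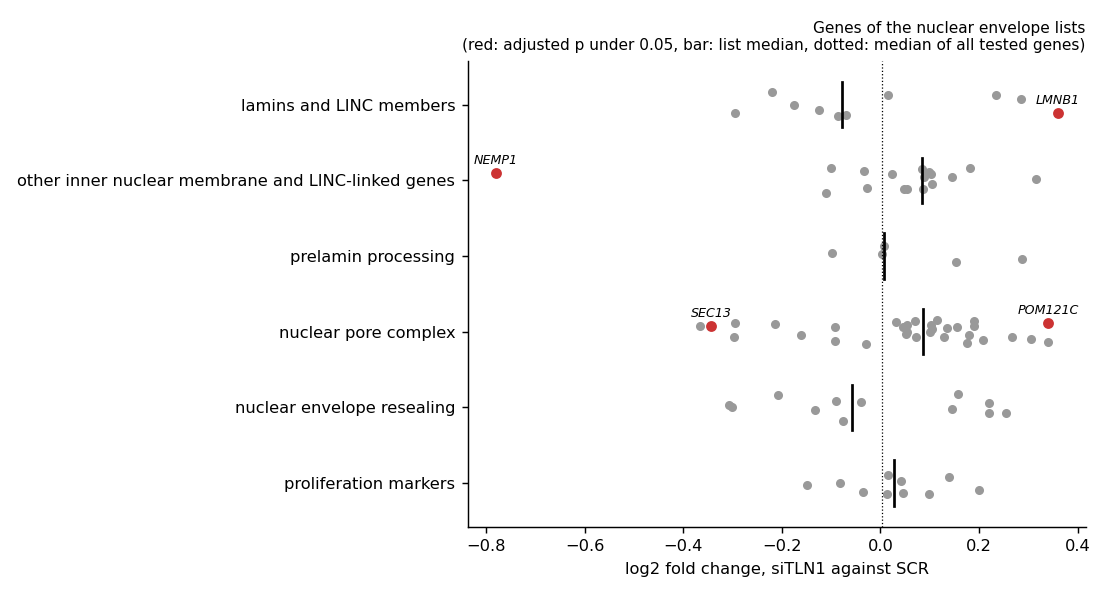
Log2 fold change (horizontal axis) of every tested gene in the lamin and LINC set and in 5 lists of nuclear envelope and proliferation genes (vertical axis), with vertical scatter for legibility only. Genes past the adjusted threshold are red and named (LMNB1, NEMP1, SEC13 and POM121C), bars mark list medians from −0.078 to 0.086, and the dotted line marks the median of all tested genes, 0.0033.

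Within the library letters, the 10 members fell into 7 whose siTLN1 value differed from SCR in the same direction in both letters and 3 that did not. The first were LMNB1, LMNB2, LBR, EMD, SUN1, SYNE1 and SYNE2. The share of such genes among all tested genes was not computed, so the count of 7 is a description only. For LMNB2 the log2 differences were −0.31 in library a and −0.28 in library b, for LBR 0.27 and 0.30, for SUN1 0.26 and 0.21, and for EMD −0.20 and −0.24. LMNA (0.022 and −0.18), SUN2 (0.044 and −0.18) and SYNE3 (−0.024 and 0.057) changed sign between the letters. The letters were not used as pairs in these tests.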

How the data were processed

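Reads were counted per gene with featureCounts 2.0.0 in paired-read mode on GENCODE 33, and the authors deposited these raw counts, per the file headers. STAR 2.7.9a, edgeR 3.34.1 and GRCh38 are named in the submitters' processing notes. The deposited table also lists exon bases per gene. The deposited log2 CPM values equalled edgeR's TMM-scaled log2 CPM within 1e-06, compared after sorting within groups. Count columns name a group but no replicate of the labels, so they were mapped to groups only.

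Symbols came from a gene name table (16085 of 16137 tested genes matched). Groups were compared with edgeR 4.0.16 in R 4.3.3 (filterByExpr with a minimum count of 10 and a total of 15, TMM, robust glmQLFit, glmQLFTest), with Benjamini-Hochberg adjustment across the tested genes and calls at 0.05. Standard errors follow from the F statistic. CPM and RPKM are TMM-scaled. The biological coefficient of variation was 0.0805. Replicates differed by more than counting noise (chi-square per degree of freedom 13.7 in SCR and 18.1 in siTLN1). Ratios were tested by exact permutation over libraries. Alternatives were RLE scaling, total counts, no filter, a mean of 10 counts, DESeq2 1.42.0, limma-trend (limma 3.58.1) on the deposited log2 values, a replicate block and each library left out. Transcript words were read from GENCODE 29, another release than that of the counts. The fits were also run on counts simulated with the same dispersion for every gene, which cannot show how reliable the calls are in these data.

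The members and lists (inner nuclear membrane, prelamin processing, nesprin-linked, nuclear pore, resealing, proliferation, epithelial, mesenchymal, and blood and endothelial) were chosen with earlier results of these data known. Named genes are TLN1, all members and at most 4 called genes per list, taken by p. Markers and further list genes given as examples were named after their values were seen. A called nesprin-linked gene and a blood marker are not reported here.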

Additional observations from a re-analysis of the deposited data

How the results depend on the processing

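Over the 6 alternatives with all 4 libraries and no block, 59 of 60 member values had the direction and the call of the reported fit. The exception was LMNB2 with DESeq2, which made the members past the threshold 2. The edgeR, DESeq2 or limma adjusted p of LMNB1 ran from 0.00872 to 0.0423 over these alternatives. With no filter on low counts, 663 genes changed among 32708 tested (980 among 16137 in the reported fit). Each fit without 1 library leaves a group with a single sample and fewer degrees of freedom. Over these 4 fits the genes changed ran from 347 (without siTLN1 library a) to 1116, the members from 0 to 2 and the listed genes from 2 to 8 (6 in the reported fit). Member values that reversed in them ran from −0.21 to 0.056 for LMNA, −0.40 to 0.058 for SYNE2 (0.032 without siTLN1 library b) and −0.042 to 0.077 for SYNE3 (−0.0022 without siTLN1 library a). The log2 difference of the LMNA to B-type ratio ran from −0.20 to 0.072 and that of SYNE1 to SYNE2 from −0.079 to 0.17 (−0.056 without siTLN1 library b). The cause was not tested.

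Pairing was checked on the deposited log2 CPM by the replicate numbers of the labels, which were not matched to the library letters. Replicate differences of the groups correlated at 0.19 across 16137 genes. They correlated at 0.54 across the 10487 genes with a mean of at least 5 CPM, a range that holds all 10 members. No label states a shared preparation. With the replicate block, limma-trend called 3645 genes (22.6% of those tested), 29 listed genes and 5 members (LMNB1, LMNB2, SUN1, EMD and LBR), whose limma adjusted p ran from 1.86e-06 for LMNB1 to 0.00970 for EMD. The block left the ratio differences at −0.065, 0.30, 0.047 and 0.37 in the order of the report.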
